A study of Mus musculus with 21 samples.

Results

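Splenic type 1 conventional dendritic cells (cDC1) are described here from 814 single cells, which were all the cells whose column names in the deposited table carried the cDC1 prefix. The whole table held 25991 cells from 21 libraries, of which 6864 were splenic dendritic cells (DCs). The reference was the other splenic cells, 1881 of them conventional DCs of type 2 (cDC2) and 4169 plasmacytoid (pDC). The study profiled mouse embryonic fibroblasts (MEFs) that had received sets of transcription factors, and the 3 splenic populations were its natural controls. All 3 came from wildtype mice as live (DAPI-negative) cells. Surface CD11c, MHC-II and CD8alpha defined the cDC1 sort, CD11c, MHC-II and CD11b the cDC2 sort, and CD11c, SiglecH, B220 and BST2 the pDC sort. For the animals, the sources used here give no strain, age, sex, number or pooling.

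In mouse spleen, cDC1 take up material from dead cells and present its peptides on MHC class I to CD8 T cells, a route called cross-presentation. They need the transcription factors IRF8, BATF3 and ID2, and they are known for the chemokine receptor XCR1, the dead-cell receptor CLEC9A and the double-stranded RNA sensor TLR3. cDC2 present mainly on MHC class II to CD4 T cells, and pDC are known as producers of type I interferon.

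Each population was a single library, so no comparison here has a replicate check and none was tested. Counts of unique molecular identifiers (UMIs, 1 per captured RNA molecule) were summed over the cells of a library and are given as CPM, the count per 1000000 UMIs of that library, with exact Poisson 95% intervals. A gene is called higher or lower where the levels differed at least 2-fold and reached 10 CPM in a compared library, and a count of 0 is replaced by a floor of 3 counts per library. A gene that reached 10 CPM in 1 compared library alone was lower in the other by construction. The directions within a list partly follow from this filter. Intervals and floors cover counting error only. A fold given as at least is the ratio at the floor, and its exact 95% limit is less extreme. The cDC1 library held 13208494 UMIs, against 23357225 in cDC2 and 53142916 in pDC. A cDC1 cell had a median of 15938 UMIs (2609 to 48273), against 11957 in cDC2 and 11707 in pDC. Mitochondrial transcripts took 1.49% of the cDC1 UMIs, 1.74% in cDC2 and 4.75% in pDC, and Gm42418, AY036118 and Lars2, which catch ribosomal RNA, took 0.880%, 0.722% and 0.115%. Of the cDC1 barcodes, 2 also occurred in pDC, 0 in cDC2 and 2 in all the other libraries. Fewer cells of a subtype and less RNA per cell cannot be told apart in such sums.

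The sorted cells carried the genes of their label. Xcr1 stood at 424 CPM in cDC1 (interval 413 to 435), 1.80 CPM in cDC2 and 0.169 CPM in pDC. Clec9a stood at 336 CPM (326 to 346), 9.08 CPM and 111 CPM. Wdfy4, whose product is needed for cross-presentation of cell-associated antigen, stood at 512 CPM (500 to 525), 265 CPM and 43.7 CPM. Naaa, a lysosomal amidase, stood at 905 CPM (889 to 921), 34.4 CPM and 9.22 CPM. All 4 genes were highest in cDC1, but they separated the populations unequally. Xcr1 and Naaa were far above both other libraries, Clec9a was 37.0-fold above cDC2 and 3.02-fold above pDC, and Wdfy4 was 1.94-fold above cDC2, short of the 2-fold limit.

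Genes that mark other cell types were mostly low or absent, though some were spread over most cDC1 cells. Of the pDC identity list, Siglech, a marker of the pDC sort, had 4 UMIs in the cDC1 library and 162102 in pDC, and Klk1, Dntt and Smim5 had 0 in cDC1. Of the cDC2 identity list, Sirpa had 6 UMIs in cDC1 and 4919 in cDC2, and Clec4a4 and Mgl2 had 0. All 6 fibroblast markers were at 0 in cDC1. The 10 B cell genes summed to 239 CPM in cDC1, 252 CPM in cDC2 and 1389 CPM in pDC, and 42 cDC1 cells (5.16%) held at least 3 of them. Ighm gave most of the cDC1 sum. Outside the 14 mature cells described further on, it stood at 192 CPM with a UMI in 85.6% of cDC1 cells, and Treml4 had one in 68.5%. The 9 monocyte genes summed to 197, 489 and 2055 CPM, with Treml4 and Ccr2 giving most of the cDC1 level. The red pulp macrophage genes summed to 44.9, 182 and 3.31 CPM with 0 of 10 at 0 in cDC1, and the plasma cell genes to 55.6, 56.7 and 765 CPM with 1 of 5 at 0. Among the others, the T cell genes summed to 16.6, 20.5 and 54.2 CPM (0 of 10 at 0), the NK cell genes to 9.46, 9.89 and 2.15 CPM (3 of 8 at 0) and the erythroid genes to 21.4, 7.71 and 3.58 CPM (1 of 7 at 0). The neutrophil genes summed to 1.51, 69.2 and 1.99 CPM (4 of 7 at 0) and the platelet genes to 0.909, 0.642 and 0.263 CPM (1 of 4 at 0). In all, 62 of 814 cDC1 cells held at least 2 genes of one of these lists after thinning, against 429 of 1881 cDC2 and 1986 of 4169 pDC cells. The monocyte list was met by 290 of the cDC2 and 1242 of the pDC cells. It shares Ccr2 and Csf1r with the cDC2 identity list and Ly6c2 with the pDC identity list. Cells of those populations can thus be counted for their own genes, so these counts do not measure cells of other types. The part that such cells or free RNA have in the levels below was not tested.

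**Figure D1:**
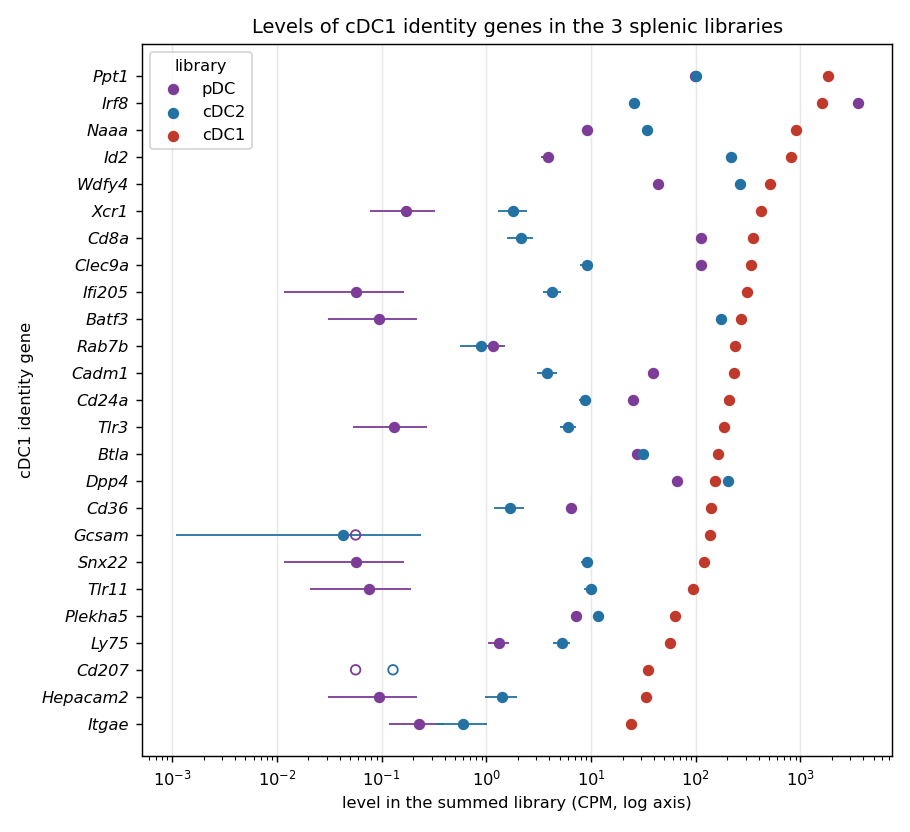
Level of each of the 25 cDC1 identity genes in the 3 splenic libraries. The x axis is CPM on a log scale, points are libraries, lines are exact Poisson 95% intervals (most are narrower than the point), and an open circle is a count of 0 drawn at the floor of 3 counts. Irf8 is the one gene above its cDC1 level in pDC, and Dpp4 the one above it in cDC2.

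The 25 cDC1 identity genes were nearly all highest in cDC1. Against cDC2, 22 were higher and 0 lower, beside 6.56% of all 7909 genes compared that were higher and 13.3% that were lower. Against pDC, 24 were higher and 1 lower, beside 10.3% and 24.2% of 8364 genes. Against both at once 21 were higher, beside 3.8% of 8734 genes. The list was drawn from known cDC1 genes, so its direction describes the label and supports nothing further. Its median log2 ratio was 4.72 against cDC2 and 6.62 against pDC, while the median of all genes compared was -0.18 and -0.36. The median gene thus lay below 0 on the CPM scale, and TMM scaling brought it to -0.02 and -0.05. Higher genes made up 33.1% of all genes called against cDC2 under CPM, 43.6% under TMM and 44.0% under median of ratios. Against pDC the shares were 29.9%, 44.6% and 46.0%.

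The genes with the largest ratio of cDC1 to the higher of the other 2 libraries were partly members of that list, such as Gcsam, Rab7b, Ifi205 and Ppt1, and partly not. Gcsam, which encodes a signalling adaptor first known from germinal centre B cells, had 1824 UMIs in cDC1 (138 CPM), 1 in cDC2 and 0 in pDC. Its ratio to cDC2 was 3226, with a counting interval of 578 to 127470, and it was at least 2446-fold higher than in pDC. Gpr141b, an orphan receptor gene, stood at 152 CPM against 0.171 and 0 CPM, and Rab7b, a late endosomal GTPase, at 240 CPM against 0.899 and 1.17 CPM. Plpp1, a lipid phosphate phosphatase, stood at 65.0 CPM against 0.471 and 0.508 CPM. Dbn1, an actin-binding protein, stood at 64.1 CPM against 0.813 and 0 CPM, Pianp at 51.6 CPM against 1.11 and 0 CPM, and Gm36723 at 120.0 CPM against 2.87 and 0 CPM. Ifi205, of the interferon-inducible p200 family, stood at 311 CPM against 4.28 CPM and 3 UMIs in pDC. Apol7c, an apolipoprotein L gene, stood at 395 CPM (385 to 406) against 13.9 CPM in cDC2 and 0 in pDC. Cst3, a cathepsin inhibitor, was among the 10 highest genes by level outside ribosomal and mitochondrial ones, at 21777 CPM against 1836 and 1551 CPM. Ppt1, a lysosomal thioesterase, stood at 1831 CPM (1808 to 1854) and was 18.4-fold and 18.7-fold higher. Ifi205, Gpr141b and Apol7c have close relatives in the genome, so their counts could be shared or dropped.

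Promoter sequence was set beside these genes because many are thought to answer to IRF8 and BATF3. RefSeq windows on GRCm38.p6 were matched by symbol for 103 of the 129 genes that were at least 2-fold higher than both other libraries and reached 50 CPM, and the 250 bases before the start were searched on both strands. The paired motif of interferon regulatory factors, GAAA and GAAA with any 2 bases between, was found in 7 (6.80%), against 3.05% of the 6978 promoters of genes at 10 CPM or more in a splenic library and 3.04% of all 27025 promoters. The composite ETS and IRF motif, GGAA and GAAA with any 2 bases between, was in 1.94% against 2.14% and 2.38%. TGANTCA, the AP-1 motif, was in 1.94% against 3.98% and 6.87%, and CANNTG, the E-box motif, in 59.2% against 55.9% and 66.0%. A match is a description of letters and not of binding. The windows of Xcr1 (chr9:123862030-123862279, minus strand) and Clec9a (chr6:129408612-129408861, plus strand) held none of the first 3 motifs, and their E-box letters are in capitals. In Tlr11 (chr14:50357664-50357913, plus strand), Ifi205 (chr1:174031756-174032005, minus strand), Apol7c (chr15:77533316-77533565, minus strand) and Gpr141b (chr13:19732952-19733201, minus strand) the capitals mark the paired GAAA motif or its reverse complement, which overlaps itself once in Apol7c. The other 3 genes with that motif were Aif1, Eif2s1 and Ifi211. Ifi211 and Ifi205 share the match GAAATTGAAA and much the same letters around it, so they are not independent among the 7. Each line gives the 250 bases before the start, read in the direction of the gene.
Xcr1: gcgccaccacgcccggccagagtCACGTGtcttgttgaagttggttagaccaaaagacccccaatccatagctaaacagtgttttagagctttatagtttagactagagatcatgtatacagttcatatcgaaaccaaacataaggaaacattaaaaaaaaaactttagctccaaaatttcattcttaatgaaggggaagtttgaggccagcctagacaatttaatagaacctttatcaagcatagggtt
Clec9a: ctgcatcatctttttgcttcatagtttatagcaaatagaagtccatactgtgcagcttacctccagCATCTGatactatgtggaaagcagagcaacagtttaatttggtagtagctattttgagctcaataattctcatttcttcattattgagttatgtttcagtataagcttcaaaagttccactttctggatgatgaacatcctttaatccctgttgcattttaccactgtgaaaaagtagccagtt
Tlr11: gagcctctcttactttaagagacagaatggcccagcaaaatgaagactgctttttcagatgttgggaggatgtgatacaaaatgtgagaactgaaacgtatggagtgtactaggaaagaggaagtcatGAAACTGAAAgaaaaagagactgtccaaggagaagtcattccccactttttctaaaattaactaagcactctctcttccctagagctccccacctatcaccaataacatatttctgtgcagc
Ifi205: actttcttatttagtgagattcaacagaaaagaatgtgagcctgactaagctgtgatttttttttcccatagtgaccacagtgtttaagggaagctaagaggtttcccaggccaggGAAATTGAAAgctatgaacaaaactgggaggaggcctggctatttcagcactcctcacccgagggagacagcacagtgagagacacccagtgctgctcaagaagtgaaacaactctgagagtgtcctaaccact
Apol7c: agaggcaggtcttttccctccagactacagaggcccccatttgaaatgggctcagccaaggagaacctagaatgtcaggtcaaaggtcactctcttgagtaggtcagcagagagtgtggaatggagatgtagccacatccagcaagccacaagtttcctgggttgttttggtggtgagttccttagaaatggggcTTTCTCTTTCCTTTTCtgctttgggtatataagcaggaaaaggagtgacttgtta
Gpr141b: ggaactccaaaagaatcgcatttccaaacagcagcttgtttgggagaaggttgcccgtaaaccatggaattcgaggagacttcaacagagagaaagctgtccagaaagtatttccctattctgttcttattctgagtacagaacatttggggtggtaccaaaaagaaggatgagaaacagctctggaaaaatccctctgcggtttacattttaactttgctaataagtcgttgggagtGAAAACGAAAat

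The transcription factor genes set cDC1 apart from each neighbour in a different way. Irf8, the factor that cDC1 depend on, stood at 1607 CPM in cDC1, 25.9 CPM in cDC2 and 3555 CPM in pDC. It was 62.0-fold higher than in cDC2 and 2.21-fold lower than in pDC. That second difference fell below 2-fold under TMM scaling (log2 -0.87) and under median of ratios (log2 -0.84). Batf3 stood at 268 CPM, 175 CPM and 0.0941 CPM (5 UMIs), so it marked both conventional populations. Id2, which blocks E proteins such as TCF4, stood at 818 CPM, 217 CPM and 3.86 CPM. Zbtb46, a conventional DC factor, was alike in cDC1 and cDC2 (73.8 and 79.0 CPM) and had 7 UMIs in pDC. Zeb2, a repressor that opposes the cDC1 fate, had 18 UMIs in cDC1 (1.36 CPM), against 211 CPM in cDC2 and 539 CPM in pDC.

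Of the 37 transcription factor genes, 31 passed the level filter against cDC2, where 3 were higher (Id2, Irf8 and Mycl) and 13 lower, beside 6.56% and 13.3% of all genes, so the share higher was near the background. Of 33 against pDC, 8 were higher and 15 lower, beside 10.3% and 24.2% of all genes. The lower genes included the cDC2 factors Irf4 (1.44 CPM against 30.9 and 15.2 CPM) and Klf4 (10.8 against 135 and 26.1 CPM). They also included the pDC factors Tcf4 (27.9 against 88.4 and 2059 CPM), Spib (0.379 against 24.4 and 296 CPM) and Bcl11a (113 against 304 and 693 CPM). Under TMM and under median of ratios, 11 rather than 15 were lower than in pDC. Relb, of the NF-kB family, was 6.15-fold lower than in cDC2 (43.9 against 270 CPM) and close to its pDC level of 31.8 CPM. Nfil3, which acts upstream in cDC1 development, was low in all 3 libraries, at 3.48, 1.33 and 2.09 CPM.

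**Figure D2:**
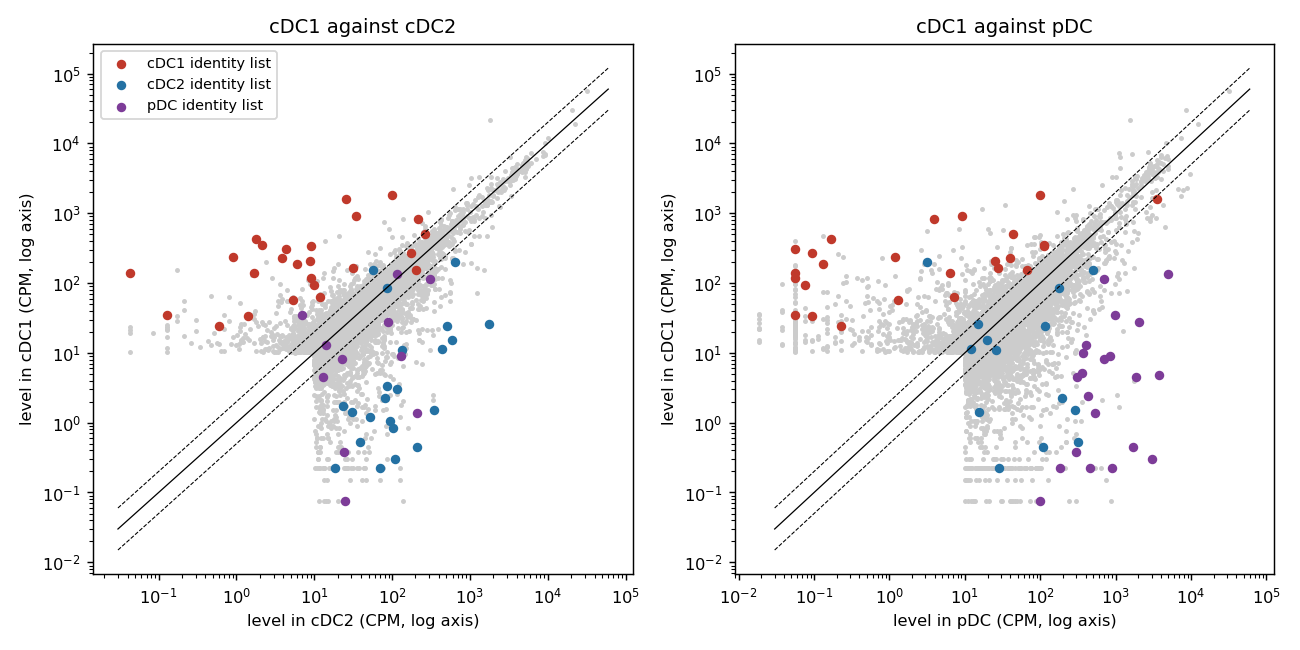
Levels in cDC1 (y axis) against cDC2 (left) and pDC (right), each in CPM on log axes, with 1 point per gene compared. The solid line marks equal levels and dashed lines 2-fold, with counts of 0 drawn at the floor. Coloured points are the cDC1, cDC2 and pDC identity lists, and the cDC1 list lies above the lines in both panels except for Irf8 (below them) in the right panel and Wdfy4, Batf3 and Dpp4 in the left.

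Genes for taking up dead cells and antigen were split. Of 23 uptake genes, 11 passed the filter against cDC2, with 3 higher and 4 lower, beside 6.56% and 13.3% of all genes, and 9 against pDC, with 5 higher and 3 lower, beside 10.3% and 24.2% of all genes. Without cells holding genes of other cell types, 2 rather than 4 were lower than in cDC2. That setting can also leave out cDC2 cells that hold genes of their own identity list. Clec9a, Cd36 and Ly75 were higher than in both. Cd36, a scavenger receptor that binds oxidised lipid and dying cells, stood at 139 CPM, 1.67 CPM and 6.38 CPM. Ly75, the endocytic receptor DEC-205, stood at 56.3, 5.27 and 1.32 CPM. Havcr2, which encodes TIM-3 and binds phosphatidylserine, stood at 328, 177 and 9.26 CPM, so it was 35.4-fold above pDC and 1.86-fold above cDC2. Fcer1g, the signalling chain of activating Fc receptors, was 16.8-fold lower than in cDC2 and 15.4-fold lower than in pDC (72.6 against 1223 and 1116 CPM). The phagocytic receptor genes Mertk and Tyro3 had 0 UMIs and Axl had 4 UMIs in cDC1.

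Of the innate sensor genes, Tlr3 and Tlr11 were higher and Tlr7 and Tmem173 lower than in both libraries. Tlr3 stood at 186 CPM in cDC1, 6.04 CPM in cDC2 and 0.132 CPM in pDC (7 UMIs), a ratio of 30.8 to cDC2. Tlr11, the receptor for the profilin of protozoa, stood at 94.0, 9.89 and 0.0753 CPM (4 UMIs in pDC). Tlr12, its partner, stood at 35.0, 0.685 and 48.2 CPM, so it was shared with pDC. Tlr7, the single-stranded RNA sensor, had 1 UMI in cDC1 against 588 in cDC2 and 5194 in pDC, a ratio of 0.00301 to cDC2 with a counting interval of 7.6e-05 to 0.0168. Tlr9, the DNA sensor, was low in all, at 2.88, 4.67 and 3.90 CPM. Tmem173, which encodes STING, was 3.12-fold and 4.87-fold lower (22.2 against 69.2 and 108 CPM), and the RNA helicase gene Ddx58 was 30.9-fold lower than in cDC2. Of 27 sensing genes in the table, 20 passed the filter against cDC2, with 3 higher and 7 lower, beside 6.56% and 13.3% of all genes. Of 19 against pDC, 5 were higher and 5 lower, beside 10.3% and 24.2% of all genes, so the share lower was near the background.

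Genes of MHC class I presentation differed little in their core. Of 28 that passed the filter, 2 were higher and 3 lower than in cDC2, both near or under the 6.56% and 13.3% of all genes. Against pDC, 4 of 28 were higher and 6 lower, both near the 10.3% and 24.2% of all genes. The list's median log2 ratio was 0.13 against cDC2 and -0.33 against pDC. The peptide transporter and proteasome genes lay on the high side without passing 2-fold in cDC2. Tap1 was 1.60-fold and Tap2 1.65-fold above cDC2, Psmb8 1.92-fold and Psme1 1.77-fold, and Psmb9, an immunoproteasome subunit, 1.93-fold above cDC2 and 2.18-fold above pDC. The count of higher genes against cDC2 was 5 instead of 2 under TMM and under median of ratios. The class I chain genes lay below both other libraries, with H2-D1 at 1662 CPM against 2213 and 3024 CPM, within 2-fold of each, B2m at 1236 CPM against 2460 and 2827 CPM and H2-K1 at 867 CPM against 1569 and 2835 CPM. Rab43, a Golgi-linked GTPase with a part in cross-presentation, was the only list member higher than in both, at 327 CPM against 160 and 26.7 CPM. This was 1 of 28 that passed, near the 3.8% of all 8734 genes compared with both. The 2-fold call of Rab43 against cDC2 rested on a ratio of 2.04.

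Among the NADPH oxidase genes of that list, Cybb, the catalytic subunit NOX2, had 33 UMIs in cDC1 (2.50 CPM) and stood at 336 CPM in cDC2 and 1040 CPM in pDC, 134-fold and 416-fold lower in cDC1. Rac2, its GTPase, was 3.13-fold and 9.79-fold lower. Cyba, the partner membrane subunit, stood at 866, 1324 and 983 CPM, within 2-fold of both. Ncf4 stood at 173, 157 and 56.7 CPM.

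MHC class II genes were nearer to cDC2 than to pDC. Class II surface protein was part of the cDC1 and cDC2 sorts, so the levels of its genes are no independent finding. H2-Ab1 stood at 7497 CPM in cDC1, 8734 CPM in cDC2 and 2660 CPM in pDC, H2-Aa at 6744, 9147 and 3953 CPM, and the invariant chain gene Cd74 at 19155, 22751 and 12204 CPM. Of 15 genes that passed against cDC2, 0 were higher and 6 lower, beside 6.56% and 13.3% of all genes. Of 14 against pDC, 6 were higher and 3 lower, beside 10.3% and 24.2% of all genes, so the share lower was near the background. The lower genes in both comparisons were H2-DMb2, Ctss and Lgmn. Ctss, the protease that trims the invariant chain, stood at 361 CPM against 1024 and 1012 CPM, and Lgmn, an asparaginyl endopeptidase, at 15.2 CPM against 45.5 and 44.5 CPM. H2-Eb2, an atypical beta chain, was 21.3-fold lower than in cDC2 (6.59 against 140 CPM).

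More lysosomal genes were lower than higher in both comparisons. Of 20 that passed against cDC2, 4 were higher (Cst3, Naaa, Ppt1 and Psap) and 8 lower, beside 6.56% and 13.3% of all genes. Of 21 against pDC, 4 were higher and 14 lower, beside 10.3% and 24.2% of all genes. Proteases made up 7 of the 8 lower against cDC2, namely Ctsa, Ctsc, Ctsd, Ctsh, Ctss, Ctsz and Lgmn. Ctsd, an aspartic protease, stood at 7.27 CPM against 43.6 and 172 CPM. Ctsl had 52 UMIs in cDC1 (3.94 CPM) against 7.11 CPM in cDC2 and 1744 CPM in pDC, a 443-fold gap to pDC. The cDC1 library held much Cst3, which encodes a cathepsin inhibitor, and several cathepsin genes at lower levels than in cDC2 or pDC. Not all of these were low in level. In the cDC1 cells outside the 14 mature ones described further on, Ctss stood at 361, Ctsz at 304 and Ctsh at 283 CPM. Under TMM and median of ratios the lower counts were 6 and 12.

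**Figure D3:**
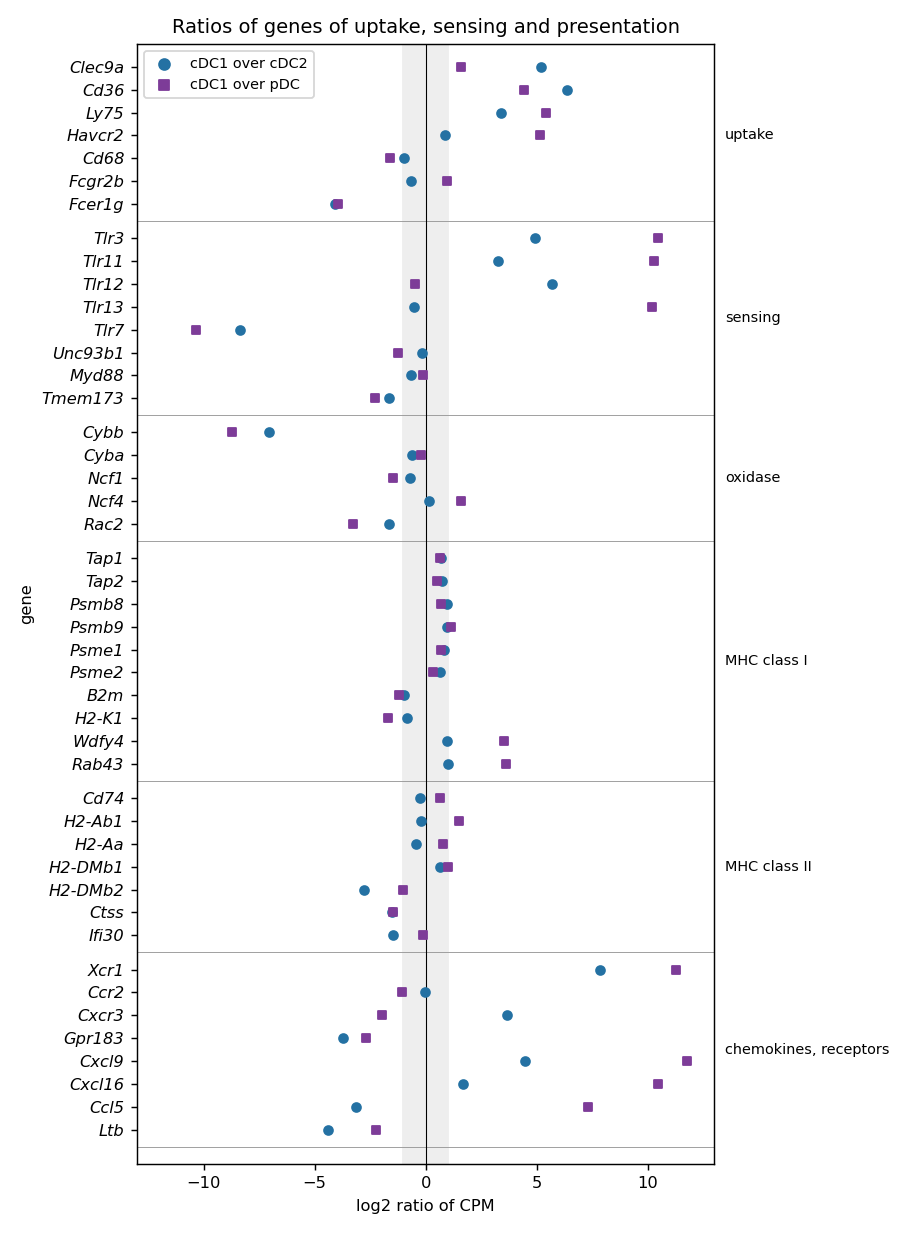
Log2 ratio of CPM, cDC1 over cDC2 (blue circles) and cDC1 over pDC (purple squares), for genes of uptake, sensing, the NADPH oxidase, MHC class I and II presentation and chemokine signalling. The grey band spans 2-fold either way; Tlr3, Tlr11 and Xcr1 lie far right, Tlr7 and Cybb far left, and most class I genes inside the band against cDC2.

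Of the cytokine and chemokine genes, Cxcl9, Cxcl16 and Il15 were higher and Ccl3, Ccl4 and Ltb lower than in both libraries. Cxcl9, which draws CXCR3-bearing T cells, stood at 467 CPM in cDC1 (456 to 479), 21.0 CPM in cDC2 and 0.132 CPM in pDC. Cxcl16 stood at 79.1, 24.2 and 0.0565 CPM, and Il15, a cytokine that sustains memory CD8 T cells, at 13.6, 4.24 and 0.188 CPM. These 3 were the only higher genes against cDC2 among 15 that passed, and 9 were lower, beside 6.56% and 13.3% of all genes. The lower ones included Ccl5 (47.3 against 413 CPM), Il1b (30.9 against 183 CPM) and Ltb (24.5 against 507 CPM). Against pDC, 10 of 13 were higher and 2 lower, beside 10.3% and 24.2% of all genes. Il12b, the p40 chain of IL-12, was rare, with 69 UMIs in cDC1 and 2 in cDC2. Ifnb1 had 0 UMIs in all 3 libraries.

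Among the 20 migration receptor genes, Xcr1 was the only one higher than in both libraries. This was 1 of 13 that passed, beside 3.8% of all 8734 genes compared with both. Cxcr3 stood at 27.3 CPM against 2.14 CPM in cDC2 and 106 CPM in pDC, and Ccr9 at 35.2 CPM against 6.98 and 994 CPM, so both lay between the other populations. Gpr183, the oxysterol receptor that positions cDC2 in the spleen, was 13.1-fold lower than in cDC2 and 6.37-fold lower than in pDC (10.1 against 133 and 64.7 CPM). Ccr2 was level with cDC2 (85.4 and 86.7 CPM) and 2.07-fold lower than in pDC. Of 12 that passed against cDC2, 3 were higher and 5 lower, beside 6.56% and 13.3% of all genes, and of 11 against pDC, 3 and 7, beside 10.3% and 24.2% of all genes.

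Costimulatory genes were uneven. Cd86 stood at 185 CPM against 58.0 and 2.84 CPM, and Btla, an inhibitory receptor, at 162 CPM against 31.1 and 27.6 CPM, and both were higher than in each other library. Cd274, which encodes PD-L1, stood at 6.66 CPM against 73.7 CPM in cDC2 and 10.1 CPM in pDC, and Pdcd1lg2, which encodes PD-L2, at 0.757 CPM against 24.2 and 0.245 CPM. Of 14 that passed against cDC2, 3 were higher and 5 lower, beside 6.56% and 13.3% of all genes, and of 13 against pDC, 8 and 2, beside 10.3% and 24.2% of all genes. In the DC maturation list, 1 of 13 was higher than in cDC2 (Apol7c) and 6 were lower, beside 6.56% and 13.3% of all genes. The share higher was thus near the background. Il4i1 (22.6 against 94.5 CPM) and Traf1 (97.1 against 269 CPM) were among the lower. Against pDC 8 of 13 were higher and 2 lower, beside 10.3% and 24.2% of all genes, so the share lower was under the background.

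Among lectin-family genes, 6 of 19 that passed were higher and 11 lower than in cDC2, beside 6.56% and 13.3% of all genes, and 6 of 15 were higher and 9 lower than in pDC, beside 10.3% and 24.2% of all genes. Cd207, which encodes langerin, had 461 UMIs in cDC1 (34.9 CPM) and 0 in both others, at least 272-fold and 618-fold higher. Clec4b2 had 275 UMIs against 7 and 0. Clec4a4, the cDC2 receptor DCIR2, had 0 UMIs in cDC1 against 69.3 CPM in cDC2, at least 305-fold lower. Of the adhesion genes, 5 of 20 that passed were higher and 5 lower than in cDC2, beside 6.56% and 13.3% of all genes. Against pDC, 6 of 19 were higher and 8 lower, beside 10.3% and 24.2% of all genes. Cadm1, Cd24a, Cd81 and Itgae were higher than in both, and Cadm3, Epcam, Itgad and Sirpa lower than in both. Cadm1, a homophilic adhesion molecule, stood at 232 CPM against 3.81 and 39.2 CPM, and Itgae, which encodes CD103, at 23.9 CPM against 0.599 and 0.226 CPM. Cd8a, the sort marker, stood at 353, 2.14 and 111 CPM. Of 19 cytokine receptor genes, 0 were higher and 6 lower than in cDC2, and 3 were higher and 9 lower than in pDC, against the same shares over all genes. Flt3, the receptor of the DC growth factor, lay within 2-fold of both at 166, 135 and 132 CPM. Il2rg, the shared gamma chain, was 16.8-fold and 8.97-fold lower (14.4 against 242 and 129 CPM).

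Genes of the interferon response were mostly lower in cDC1 than in cDC2. Of 18 that passed against cDC2, 0 were higher and 14 lower, beside 6.56% and 13.3% of all genes, with a median log2 ratio of -2.64. Members that passed through their cDC2 level alone could only be lower. With no filter, 1 was higher and 15 lower than in cDC2, and 5 were higher and 8 lower than in pDC. At 50 CPM, 0 were higher and 2 lower than in cDC2. Ifit3 stood at 0.454 CPM against 49.2 CPM in cDC2, 108-fold lower, and Isg15 at 31.3 against 136 CPM. Rtp4 had 2 UMIs in cDC1 against 69.7 CPM, a ratio of 0.00217 with a counting interval of 0.000263 to 0.00786. Against pDC, 0 of 9 were higher and 5 lower, beside 10.3% and 24.2% of all genes, among them Irf7 (80.1 against 266 CPM), while Isg15 was near its pDC level of 27.5 CPM. Immediate early and heat shock genes can rise during tissue handling. Of 18 against cDC2, 0 were higher and 5 lower (Egr1 66.2 against 180 CPM), beside 6.56% and 13.3% of all genes. The lower count was 3 without the cycling clusters described further on, and 0 at 4-fold. Against pDC, 10 of 18 were higher (Atf3 18.2 against 0.0753 CPM) and 1 lower, beside 10.3% and 24.2% of all genes. The part of handling in these levels was not tested.

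Proliferation genes were higher in cDC1 than in either population. Of 18 cell cycle genes that passed against cDC2, 11 were higher and 1 lower, beside 6.56% and 13.3% of all genes. Of 17 against pDC, 14 were higher and 0 lower, beside 10.3% and 24.2% of all genes. Hells, a chromatin remodeller of replicating cells, stood at 82.5 CPM against 7.02 and 4.20 CPM, Mcm5, of the replicative helicase, at 32.3 against 9.33 and 6.21 CPM, and Ccnb2, a mitotic cyclin, at 17.0 against 4.71 and 0.395 CPM. Mki67 did not separate cDC1 from cDC2 (21.7 and 21.8 CPM). Without the 2 cycling clusters described further on, which hold 219 cDC1 cells, 1 was higher and 2 lower than in cDC2, and 4 were higher and 1 lower than in pDC. These clusters were picked by their cycling markers and left out of cDC1 alone, with cDC2 and pDC kept whole. A fall in the higher counts was therefore built in.

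The genes lowest in cDC1 relative to both libraries had few UMIs there. Sirpa, the cDC2 receptor for CD47, stood at 0.454 CPM against 211 and 107 CPM, 464-fold and 236-fold lower. Cd209a, a lectin of the DC-SIGN family, stood at 1.51 CPM against 342 and 290.5 CPM, and Cd7 at 2.12 against 335 and 664 CPM. Ddr1 (1.59 CPM), Cd72 (1.51 CPM), Cd4 (2.27 CPM) and Slc2a3, a glucose transporter (1.51 CPM), each had between 20 and 30 UMIs in cDC1. Gm34680 had 1 UMI in cDC1 against 3212 in cDC2 and 16078 in pDC, a ratio of 0.000551 to cDC2 with a counting interval of 1.39e-05 to 0.00307. Of the cDC2 identity list, 8 were lower than in both libraries, beside 7.2% of all genes compared with both. In that list 20 of 22 were lower than in cDC2 and 1, Clec12a, was higher (155 against 56.4 CPM), beside 13.3% and 6.56% of all genes. Of the pDC identity list, 21 of 21 that passed were lower than in pDC, beside 24.2% of all genes.

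Per cell, the marker genes were widespread. After each cell was thinned to 2500 UMIs, Naaa had a UMI in 84.8% of cDC1 cells (exact Clopper-Pearson interval 82.1 to 87.2), Wdfy4 in 67.8%, Xcr1 in 61.8% (58.4 to 65.1) and Clec9a in 56.3%. The shares in cDC2 were 7.60%, 44.3%, 0.691% and 1.81%, and in pDC 2.16%, 10.6%, 0.0240% and 22.2%. Without thinning, the 4 genes were seen in 98.8%, 98.3%, 97.3% and 96.1% of cDC1 cells. Xcr1 then had a UMI in 1.81% of cDC2 and 0.216% of pDC cells, at median depths of 11957 and 11707 UMIs. Whether these UMIs came from free RNA, doublets or cDC1 cells in those sorts was not tested. Cd207 was found in 21.1% of unthinned cDC1 cells and in 0 of 1881 cDC2 and 0 of 4169 pDC cells. Siglech and Sirpa each had a UMI in 4 of the 814 cDC1 cells (0.491%), whereas Siglech was found in 100% of pDC cells and Sirpa in 85.3% of cDC2 cells.

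**Figure D4:**
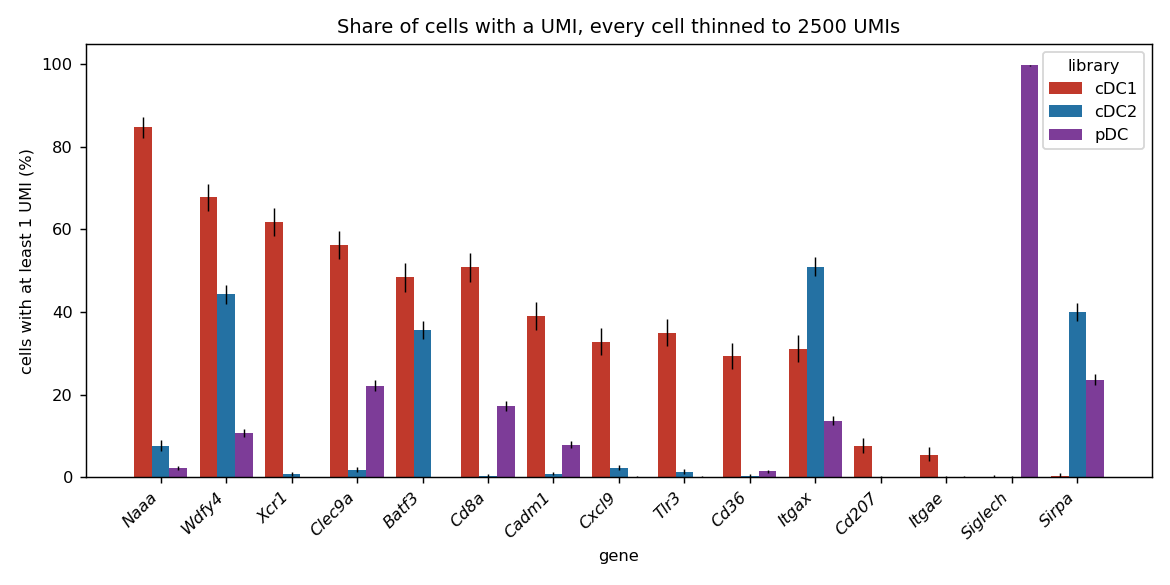
Share of cells with at least 1 UMI of each gene (y axis, percent) in the 3 splenic libraries after thinning every cell to 2500 UMIs. Bars start at 0 and error bars are exact Clopper-Pearson 95% intervals, which cover counting error only. Naaa, Xcr1 and Tlr3 are seen mostly in cDC1, Wdfy4 and Batf3 also in cDC2, and Clec9a and Cd8a also in pDC.

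The cDC1 cells fell into 7 clusters at a resolution of 0.5, numbered by size, and what follows describes them without a test. Their 4 label markers summed to 1388 to 2553 CPM in every cluster, so none lacked the cDC1 genes. Cluster 1 (196 cells, 24.1%) was led by S100a10, Ccr2, Vim, S100a6 and Anxa2, with Ccr2 at 202 CPM against 47.7 CPM in the other cDC1 cells. Cluster 2 (181 cells) was led by Igkc, Rgs1, Il4i1, Dusp5 and Ccl5, with Ccl5 at 159.7 CPM against 19.5 CPM. Few cells carried much of this, since the 14 mature cells described further on, 13 of them in cluster 2, held 287 Ccl5 and 203 Il4i1 UMIs, against 419 and 234 in the whole cluster. Cluster 3 (174 cells) was led by Cd207, Gm34084, Apoe, Armc8 and Apol7c, with Cd207 at 69.3 CPM against 26.1 CPM. Clusters 2 and 3 both held more Cd207 and Itgae than cluster 1. Cd207 was at 68.2 and 69.3 CPM in them and 9.57 CPM in cluster 1, Itgae at 54.1, 36.3 and 8.95 CPM, and Ccr2 at 5.34 and 5.19 CPM in them. Clec9a ranged from 213 CPM in cluster 6 to 537 CPM in cluster 2.

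Clusters 4 and 5 held the cycling markers, at summed levels of 273 and 272 CPM, against 18.2 to 61.8 CPM in the others. Together they held 219 cells, 26.9% of the cDC1 cells. The limit of 100 CPM that separates them was set after their values were seen. That share counts whole clusters, and at a resolution of 1.0 it fell to 19.5%. The mitotic genes then led a cluster of 39 cells with 743 CPM of cycling markers, while 103 cells led by Hbb-bs, Phgdh, Creld2, Pdia4 and Manf had 63.4 CPM, under the limit. Cluster 4 (134 cells) was led by Ccnb2, Birc5, Cenpa, Hist1h2bc and Creld2, so it held mitotic genes, and Ccnb2 stood at 88.5 CPM against 1.74 CPM. Next among its leading genes, chosen after their values were seen, were the endoplasmic reticulum folding genes Manf (683 CPM against 172 CPM), Pdia4 and Sdf2l1. Cluster 5 (85 cells) was led by genes that included Xcl1, Cdc6, Clspn and Ung, so it held replication genes beside Xcl1, the ligand of XCR1. Its Xcl1 count was 126 UMIs (68.8 CPM) against 11 UMIs (0.967 CPM) in all other cDC1 cells, and its median depth was 22739 UMIs. How many of the 85 cells held Xcl1 was not counted, so few cells could carry it. The part of other cell types or cell pairs in that count was not tested. Few single cells showed the mitotic genes strongly. After thinning, 6 cDC1 cells (0.737%, interval 0.271 to 1.60) held at least 3 of the 10 cycling markers, against 3 cDC2 cells (0.159%) and 1 pDC cell (0.0240%).

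Cluster 6 (24 cells) had a median of 6436.5 UMIs, was led by Il1b, 2310010J17Rik, Proser2, Batf and Ly6a at 9 to 21 UMIs each, and was given no name. Cluster 7 (20 cells, 2.46%) was led by Iigp1, Rsad2, Ifi47, Gbp5 and Cxcl10, genes induced by interferons. Iigp1 had 50 UMIs in those 20 cells (154 CPM) and 5 UMIs in all others. Cxcl9 reached 5130 CPM there and 350 CPM in the rest, so 2.46% of the cells held 1661 of the 6174 Cxcl9 UMIs. A cluster of the same size and leading genes was found at a resolution of 1.0, but none of the 5 clusters at a resolution of 0.3 was led by such genes. 

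**Figure D5:**
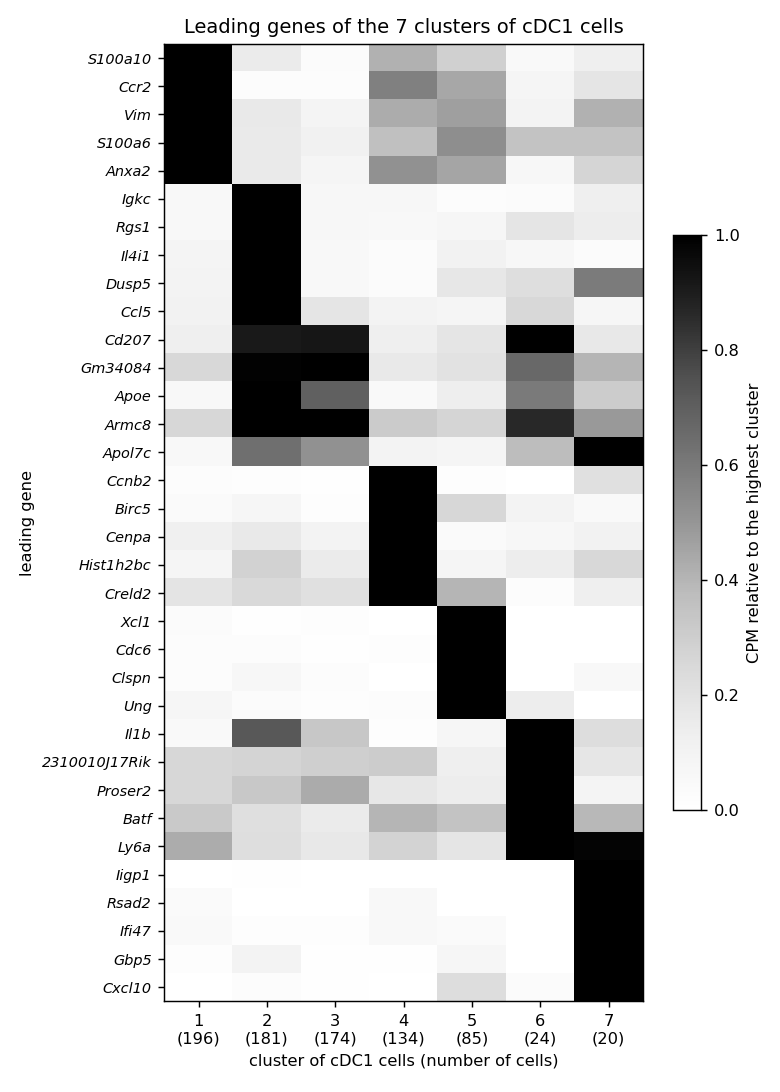
Level of the leading genes, up to 5 per cluster, of the cDC1 cells (vertical axis) in each of the 7 clusters (horizontal axis, with the number of cells), as CPM in proportion to the cluster with the highest level, from white (0) to black (1). Iigp1 and Rsad2 are near white outside cluster 7, clusters 4 and 5 are dark for separate proliferation genes, and Cd207, Gm34084, Apoe and Armc8 are dark in clusters 2, 3 and 6.

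A small group held genes of mature, migratory DCs. Of the cDC1 cells, 14 (1.72%) held at least 5 of 9 mature DC markers, a rule set after the values were seen, and 13 of them lay in cluster 2. They had a median of 25010.5 UMIs against 15844.5 in the other cDC1 cells. Genes outside that marker set can be read in them. Il12b stood at 179 CPM in the 14 cells against 0.467 CPM in the others, so 63 of its 69 UMIs came from them, and Il21r at 139.6 CPM against 3.19 CPM. Traf1 stood at 501 CPM against 86.0 CPM and Cd63 at 157 CPM against 3.03 CPM. Of these 14 cells, 5 also held at least 3 of the B cell genes, whereas 42 of all 814 cDC1 cells did. Of genes of T and NK cells, Eomes had 27 UMIs and Cd3e 8 in the 14 cells, each in 7.14% of them. Klrb1c and Ncr1 had 0. The part of cell pairs in their levels was not tested.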

How the data were processed

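The deposited table held whole-number UMI counts per gene symbol and cell, which the authors made from 10x Chromium Single Cell 3' v3.1 libraries with Cell Ranger 6.0.1, Seurat and mm10, per the submitters' processing notes. No filter on cells is named in the sources used here. The table gave 24455 symbols and no coordinates. Columns were assigned to libraries by their prefix, and 0 columns were left over.

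Counts were summed per splenic library and scaled to CPM. Genes were compared at 10 CPM or more in a compared library with a 2-fold limit, and no test was run because each group was 1 library. Cells were clustered with scanpy 1.11.5 (2000 variable genes, 20 components, 15 neighbours, Leiden resolution 0.5). Scrublet called 7 cDC1, 9 cDC2 and 0 pDC cells as doublets, so its calls in pDC are not relied on, and no cell was removed. edgeR 4.0.16 gave TMM factors only. Self-tests on simulated counts were run for the comparison. The alternatives were 2 other scalings, other filters, cell sets, depths and resolutions.

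Named genes were the 15 with the largest ratio to the higher of both libraries at 50 CPM or more, the 10 with the smallest ratio to the lower, the 10 highest by level outside ribosomal and mitochondrial genes, the 5 leading each cluster, the 4 label markers and examples from each list. Members and lists were chosen with earlier results of these data known. Of the genes listed, 7 symbols had no match by name. Some genes that the rule names are not reported here.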

Additional observations from a re-analysis of the deposited data

How the results depend on the processing

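The counts of genes past 2-fold stayed within 1.5 times of those reported under both scalings, a total without ribosomal and mitochondrial genes, a mean over cells, and 4 choices of cells left out. They moved with the level filter and the fold. Higher and lower in cDC1 than in cDC2 numbered 1071 and 1966 at 1 CPM, 1556 and 2585 with no filter, 203 and 433 at 50 CPM, and 201 and 437 at 4-fold. Against pDC they were 1737 and 3243, 2962 and 3752, 368 and 884, and 469 and 791 in the same order. Against both they were 682 and 1029, 1107 and 1181, 129 and 289, and 129 and 205. More or fewer genes entered by construction. At resolution 1.0 there were 11 clusters, and the cycling share was 19.5%. Counting cells with at least 3 cycling markers after thinning gave 0.737%. The genes ranked by ratio or by level, the label markers and Batf3, Irf8, Id2, Tlr11 and Cd8a were read under 8 settings. Their ratios past 2-fold, times settings, numbered 544, of which 542 stayed past it, and both exceptions were Irf8 against pDC. Many of these genes were picked for large ratios, so this outcome was nearly fixed in advance. List examples and cluster leaders were not read this way, and some list counts moved, as given above. Without cells holding other-cell genes, log2 ratios to cDC2 moved to 6.03 for Clec9a, 6.58 for Irf8, 7.13 for Cd36, 7.89 for Plpp1, -5.99 for Cd72 and -9.68 for Sirpa. Those to pDC moved to -8.76 for Sirpa and -6.80 for Cd72. This setting can also leave out cDC2 and pDC cells that hold genes of their own identity lists. It is therefore no check for cells of other types. Log2 bounds to pDC of genes with 0 UMIs there fell, as for Gcsam from 11.3 to 10.3. Without the cDC1 cells of the cycling clusters, Cd209a moved to -8.43 against cDC2 and -8.19 against pDC. No ratio past 2-fold of the genes read this way changed direction.

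Counting error is small for genes with many UMIs, but 1 library per population leaves animal, sort and library effects unmeasured. A count of 0 gives only a bound, and 1 to 3 counts a wide interval. No paired analysis was possible because each splenic group was 1 library and no replicate numbers tie splenic samples together.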

Other observations

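The 129 genes at least 2-fold higher in cDC1 than in both other splenic libraries, at 50 CPM or more, were read in the fibroblast libraries of the study. These were 2 libraries of wildtype MEFs and 16 of transduced MEFs, taken 3 or 9 days after lentiviral transduction and sorted for a reporter. Of the latter, 12 came from Clec9aCre/Cre Rosa26 tdTomato MEFs and 4 from hCD2Cre/WT Rosa26 YFP MEFs, each a single library. In the MEF libraries, 24 and 25 of them reached at least 50% of the cDC1 level, as did 28 to 46 in the 16 transduced libraries. Xcr1, Clec9a, Wdfy4 and Naaa did so in none of the transduced libraries. Xcr1 stood at 156 CPM at day 3 and 189 CPM at day 9 with the factor set PIB (Pu.1, Irf8 and Batf3), against 424 CPM in cDC1 and at most 8.19 CPM in the other transduced libraries. Wdfy4 reached at most 27.6 CPM there, in PI8 (Pu.1 and Irf8) at day 9, against 512 CPM in cDC1. That library differed much from PI8 at day 3, with Cst3 at 372 against 10757 CPM and Id2 at 5.81 against 373 CPM. The part of the factor set in its Wdfy4 level was not tested. Cst3 stood at 23445 CPM in SI8 (Spib and Irf8) of the Clec9aCre/Cre line at day 3, near the cDC1 level of 21777 CPM. Clec9a had 0 to 2 UMIs in the 12 libraries of the Clec9aCre/Cre line, which carries Cre in both copies of that gene. SI8 and SII (Spib, Irf8 and Ikzf2) were run in both lines. For SI8, Clec9a had 0 and 2 UMIs in the Clec9aCre/Cre line at day 3 and day 9, against 34 and 41 UMIs in the hCD2 line. For SII it had 2 and 0 UMIs against 188 and 49 UMIs. The other sets were run in the Clec9aCre/Cre line, so for them the allele and the set cannot be told apart in the Clec9a count.

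Xist was detected in all 3 splenic libraries, at 564 CPM in cDC1, 867 CPM in cDC2 and 1776 CPM in pDC, and the 4 Y-linked genes read (Ddx3y, Uty, Kdm5d and Eif2s3y) had 0 UMIs in cDC1.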
